A study of Mus musculus with 5 samples.

Results

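The peroxisome proliferator-activated receptors (PPARs) and a set of their target genes were followed in mouse aorta. The set held 8 genes, chosen by annotated symbol: the receptors Pparg, Ppara and Ppard and the target genes Angptl4, Pdk4, Cpt1a, Cd36 and Fabp4. They were 8 of the 12393 genes with a symbol of their own on the array, and 16 probe sets were annotated to them. Aortas came from male mice, 16 to 20 weeks old on regular chow, of the strain BKS.Cg-m +/+ Lepr db/J. The db/db mice carried the db mutation on both copies of Lepr, the gene of the leptin receptor, and such mice become obese and diabetic, while the db/+ mice had 1 mutant copy. The strain also carries the coat colour allele m. Each array was hybridised with the RNA of 6 pooled aortas, stripped of adventitia and of the fat around the vessel, and 3 db/db pools (replicates 1, 2 and 3) were set against 2 db/+ pools (replicates 2 and 3). The spread between arrays is therefore that between pools, and a single mouse may differ more.

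PPARs are nuclear receptors that bind fatty acids and their derivatives and, paired with a retinoid X receptor (RXR), switch on genes of lipid handling. PPAR gamma drives the formation of fat cells and is also found in endothelium, smooth muscle and macrophages. PPAR alpha is best known for fatty acid oxidation in liver, heart and brown fat, and PPAR delta is present in most tissues. The target genes are used as readouts of this system, although each also has other inputs.

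Values are MAS5 signals, a linear brightness per probe set, scaled by the authors to the same trimmed mean on every array. Log2 changes are db/db minus db/+ on log2(signal + 16), with the standard error (SE) and p-values of limma, adjusted by Benjamini-Hochberg over the 13575 probe sets above a filter on low signals (a signal of about 39.5). Pearson's r across probe sets was 0.952 to 0.977 over the pairs of arrays, and 0.952 to 0.965 for the pairs that include db/db replicate 1. All 12 measured smooth muscle markers were above the filter. So were all 12 measured white adipocyte markers, and 10 of 11 brown adipocyte markers, in an aorta from which fat had been stripped.

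Of the 8 genes, 7 were above the filter, with 13 probe sets among them, and 0 of the 7 passed an adjusted p under 0.05 in limma (3 had an unadjusted p under 0.05 and were lower in db/db, and 0 were higher). Over all probe sets tested, 0.081% passed as lower and 0% as higher, while at an unadjusted p under 0.05, 4.15% were lower and 3.98% higher. Angptl4 came nearest to the threshold. By the brightest probe set of each gene, 6 of the 7 had a log2 change below 0, where 47.0% of all probe sets did. In Pparg, Angptl4 and Pdk4 every db/db pool lay below every db/+ pool, a pattern of 11.9% of all probe sets, and in Cpt1a every db/db pool lay above, as in 13.1%. The median change of the 7 was −0.60, beside 0.02 over all probe sets tested, and it was −0.31 without db/db replicate 1.

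**Figure D1:**
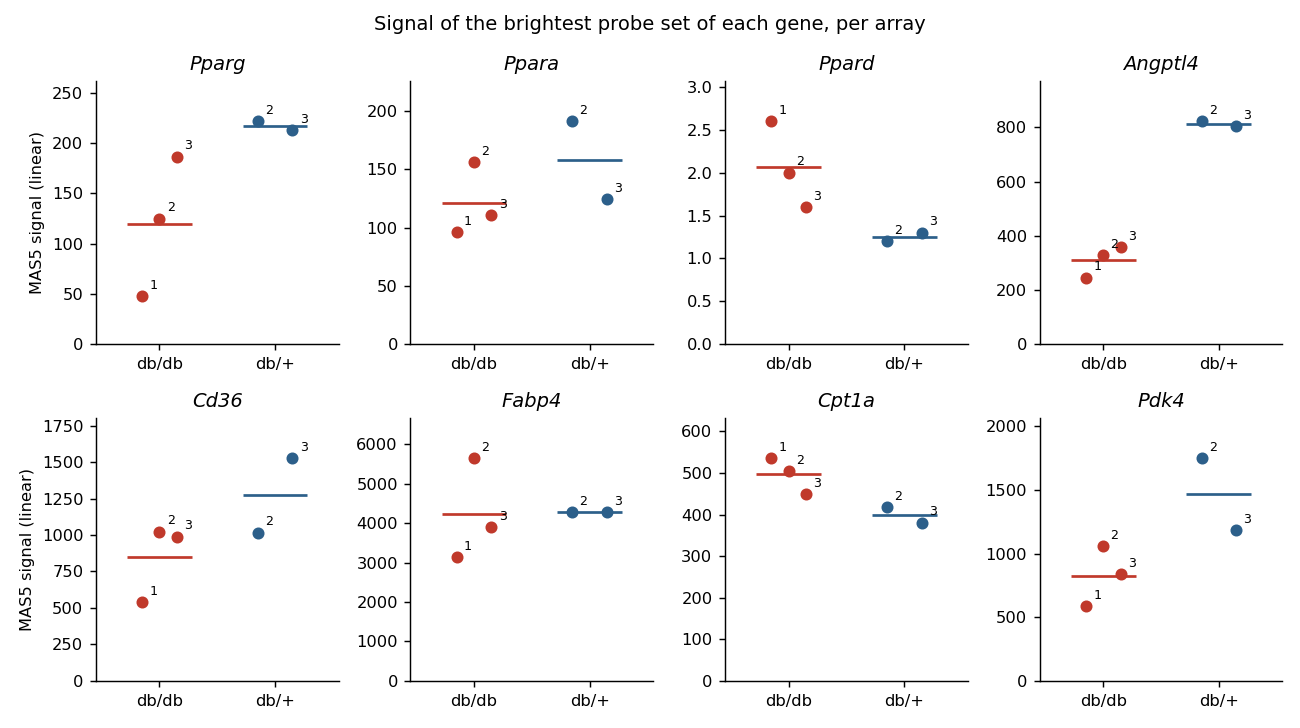
MAS5 signal (linear, axis from 0) of the brightest probe set of each of the 8 genes, 1 point per array, with the replicate number beside it and the group mean as a line. Angptl4 lay between 246.1 and 359.3 in the 3 db/db pools and at 823.3 and 805.7 in the 2 db/+ pools; the axis of Ppard ends at a signal of about 3.

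Among the receptors, Pparg had signals of 47.5, 124.9 and 186.4 in the db/db pools (replicates 1, 2 and 3), against 221.7 and 212.7 in the db/+ pools (replicates 2 and 3). The groups did not overlap, but the db/db pools were far apart, and replicate 1 was lowest. Means were 119.6 ± 69.6 in db/db (SD, n = 3) and 217.2 ± 6.36 in db/+ (SD, n = 2), and the log2 change was −0.94 (SE 0.40, 95% interval −1.86 to −0.02, limma adjusted p = 0.61). Without db/db replicate 1 it was −0.47 (SE 0.21). In bulk tissue, fewer cells that express a gene and less of its RNA per cell cannot be told apart.

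Ppara had signals of 95.9, 156.4 and 110.5 in db/db, against 191.3 and 124.2 in db/+. The groups overlapped, since db/db replicate 2 lay above db/+ replicate 3. The log2 change of −0.34 (SE 0.24, adjusted p = 0.79) had an interval from −0.89 to 0.20. It was −0.06 without db/+ replicate 2, −0.62 without db/+ replicate 3 and −0.21 without db/db replicate 1. Ppard was represented by a single probe set with signals of 2.6, 2 and 1.6 in db/db, against 1.2 and 1.3 in db/+. These are far under the filter, in a range where between 19% and 22% of the probe sets of each array lay under a signal of 16. Neither a level nor a change of Ppard can therefore be read from this array.

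For Pparg, RefSeq (build GRCm38.p6) lists 3 starts, and the windows from 250 bases before to 50 after the first and second are shown because each holds the hexamer AGGTCA, the building block of PPAR binding sites, printed in capitals. The windows are chr6:115360894-115361193 and chr6:115362099-115362398, both on the plus strand, and the hexamer begins 28 and 9 bases before the start. The window at the third start, chr6:115421816-115422115, had no match on either strand. The probe set is of a type that reads several transcripts of the gene, so the signal does not tell the starts apart.
Pparg first start: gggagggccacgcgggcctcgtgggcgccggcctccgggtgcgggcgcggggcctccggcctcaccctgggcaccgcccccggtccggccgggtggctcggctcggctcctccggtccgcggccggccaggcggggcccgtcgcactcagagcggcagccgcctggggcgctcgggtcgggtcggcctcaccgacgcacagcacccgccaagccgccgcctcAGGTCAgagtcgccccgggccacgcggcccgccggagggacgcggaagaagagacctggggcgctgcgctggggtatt
Pparg second start: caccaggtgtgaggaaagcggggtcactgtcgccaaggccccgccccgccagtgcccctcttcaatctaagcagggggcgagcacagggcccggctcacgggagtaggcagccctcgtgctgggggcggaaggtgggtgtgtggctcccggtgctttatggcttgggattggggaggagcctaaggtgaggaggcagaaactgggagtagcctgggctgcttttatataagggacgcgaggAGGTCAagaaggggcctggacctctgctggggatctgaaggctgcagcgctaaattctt

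Angptl4 encodes a secreted inhibitor of lipoprotein lipase, the enzyme that frees fatty acids from circulating triglyceride. Its signals were 246.1, 329.4 and 359.3 in db/db, against 823.3 and 805.7 in db/+. All 3 db/db pools were below the lower db/+ pool by more than the whole spread within either genotype. Means were 311.6 ± 58.7 in db/db (SD, n = 3) and 814.5 ± 12.4 in db/+ (SD, n = 2), a ratio of 0.383. The log2 change was −1.36 (SE 0.19, 95% interval −1.79 to −0.93, limma adjusted p = 0.0517), rank 16 of 13575 by p. It missed the threshold and stood at −1.21 (adjusted p = 0.0464) without db/db replicate 1, so it was nearly as large without that pool. Over 15 other settings the change lay between −1.46 and −1.21 and the adjusted p between 0.0193 and 0.543, below 0.05 in 7 of them. The highest was that without db/+ replicate 3, a fit that leaves 1 db/+ pool. The suffix of this probe set marks one that may cross-hybridise to related transcripts. The other probe set of Angptl4 had signals from 4.9 to 13.7, under the filter, and was not tested.

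Pdk4 encodes the pyruvate dehydrogenase kinase that turns cells from glucose towards fat as fuel. Its signals were 587.3, 1056.6 and 837.1 in db/db, against 1751.6 and 1184.2 in db/+. The groups did not overlap, with the gap between db/db replicate 2 and db/+ replicate 3 smaller than the spread in either group. Means were 827 ± 235 in db/db (SD, n = 3) and 1468 ± 401 in db/+ (SD, n = 2), and limma gave a log2 change of −0.83 (SE 0.27, 95% interval −1.43 to −0.22, adjusted p = 0.43). Without db/+ replicate 2 it was −0.55 (SE 0.33).

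Cd36 encodes a membrane receptor for fatty acids and oxidised lipoproteins and had 3 probe sets above the filter. The brightest had 541.2, 1022.5 and 988.9 in db/db, against 1015.8 and 1528.4 in db/+, so that the groups overlapped (log2 change −0.60, SE 0.30, adjusted p = 0.67). Without db/db replicate 1, or without db/+ replicate 3, that change was −0.31. The second had 410.6, 723.6 and 776.6 in db/db, against 1117.4 and 1011.5 in db/+. Here the groups did not overlap (log2 change −0.78, SE 0.26, adjusted p = 0.46), and without db/db replicate 1 the change was −0.50. The third ran the other way, with 114.5, 146.7 and 128.1 in db/db and 86.7 and 114.7 in db/+ (SE 0.18 on a log2 change of 0.33, adjusted p = 0.71), and its change was 0.15 without db/+ replicate 2 and 0.50 without db/+ replicate 3. The 3 probe sets of Cd36 thus disagree in direction.

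Fabp4 encodes the fatty acid binding protein of adipocytes, macrophages and capillary endothelium, and had 4 probe sets above the filter. The brightest had 3129.6, 5654.4 and 3896.6 in db/db, against 4289.1 and 4289.3 in db/+. The db/+ pools lay inside the range of the db/db pools, and the log2 change was −0.06 (SE 0.24, 95% interval −0.61 to 0.48, adjusted p = 0.97). Without db/db replicate 1 it was 0.13. The other 3 probe sets had log2 changes of −0.33, −0.75 and −0.17, all with overlapping groups. The first of these was −0.06 with db/db replicate 1 left out and −0.70 with db/db replicate 2 left out. The last was higher in db/db without db/db replicate 1 (0.08) or db/+ replicate 2 (0.16), and −0.47 and −0.49 without db/db replicate 2 and db/+ replicate 3. The middle one had 85, 205.1 and 121.4 in db/db, against 259.3 and 202.2 in db/+ (SE 0.30, adjusted p = 0.57), and its change was −0.49 without db/db replicate 1.

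Cpt1a encodes the enzyme of the outer mitochondrial membrane that commits long-chain fatty acids to oxidation. It was the 1 gene of the 7 that was higher in db/db by its brightest probe set, with 536.3, 505 and 449.8 in db/db, against 417.9 and 380.5 in db/+. The groups did not overlap, and means were 497 ± 43.8 in db/db (SD, n = 3) and 399.2 ± 26.5 in db/+ (SD, n = 2). The log2 change of 0.30 (SE 0.16, 95% interval −0.06 to 0.67, adjusted p = 0.69) did not pass. A second probe set, whose suffix marks possible cross-hybridisation, had 28.4, 44.4 and 36.7 in db/db, against 58 and 41 in db/+. These groups overlapped, with a change of −0.32 on the log2 scale (SE 0.20, adjusted p = 0.75), which was −0.20 without db/db replicate 1 and −0.51 without db/+ replicate 3. The remaining one was under the filter, with signals from 7.5 to 43.6. With the probe sets averaged the change of Cpt1a was −0.01.

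**Figure D2:**
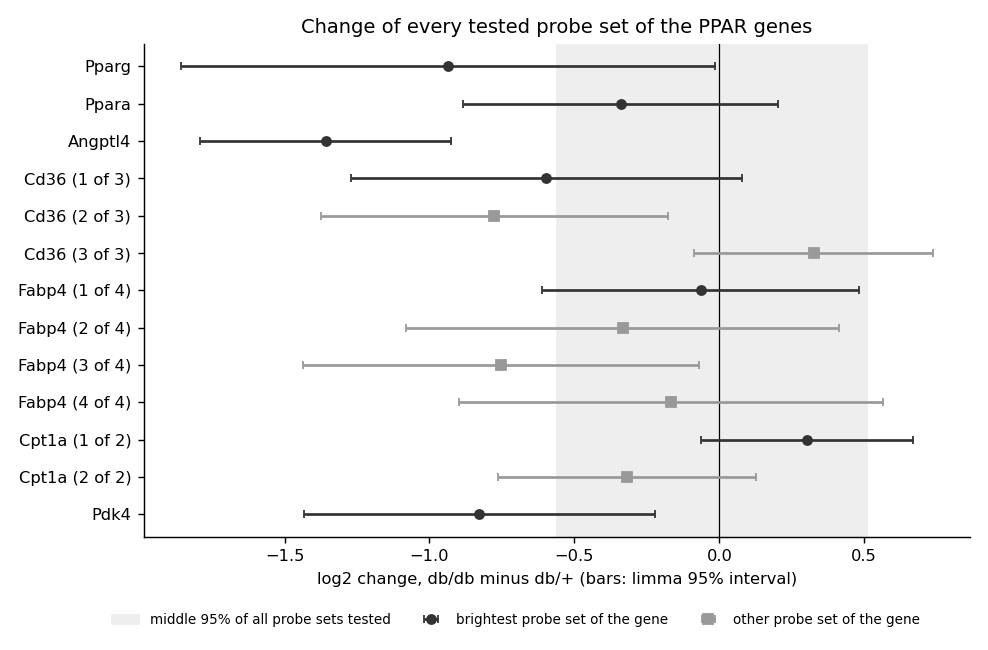
Log2 change (db/db minus db/+) of the 13 probe sets above the filter, as points with the 95% interval from limma, the brightest probe set of a gene in black and others in grey. The shaded band holds the middle 95% of all probe sets tested, from −0.56 to 0.51; Angptl4, Pparg and Pdk4 lie left of it, as do 2 probe sets of Cd36 and 1 of Fabp4.

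Promoter windows of 6 of the 8 genes were matched by symbol in the RefSeq table; Angptl4 and Fabp4 were not matched. The windows of Pdk4, Cd36 and Cpt1a are shown as those of target genes whose pools separated by genotype in at least 1 probe set. Windows were searched on both strands for AGGTCA and for 2 copies of it in the same direction with any 1 base between them, the direct repeat bound by PPAR with RXR, each match of which also counts as a single hexamer. The hexamer was found in 4 of the 8 windows (2 of Pparg, 1 each of Cd36 and Cpt1a), and in 16.3% of all 32851 promoter windows. The direct repeat was found in 0 of the 8, and in 13 of all windows (0.0396%). Matches are letters in these windows, and binding sites elsewhere were not searched. The windows are chr6:5496229-5496528 on the minus strand for Pdk4, with no match, chr5:17835847-17836146 on the minus strand for Cd36 and chr19:3323051-3323350 on the plus strand for Cpt1a. In the last 2, the capitals mark the hexamer as it reads from the other strand, and it begins 228 bases before the start of Cd36 and 94 before that of Cpt1a.
Pdk4: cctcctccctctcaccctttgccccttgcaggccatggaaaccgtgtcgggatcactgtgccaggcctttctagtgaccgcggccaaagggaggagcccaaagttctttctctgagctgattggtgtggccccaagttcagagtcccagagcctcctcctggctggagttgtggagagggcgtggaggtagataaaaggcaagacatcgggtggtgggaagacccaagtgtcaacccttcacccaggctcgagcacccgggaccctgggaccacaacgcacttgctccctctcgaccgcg
Cd36: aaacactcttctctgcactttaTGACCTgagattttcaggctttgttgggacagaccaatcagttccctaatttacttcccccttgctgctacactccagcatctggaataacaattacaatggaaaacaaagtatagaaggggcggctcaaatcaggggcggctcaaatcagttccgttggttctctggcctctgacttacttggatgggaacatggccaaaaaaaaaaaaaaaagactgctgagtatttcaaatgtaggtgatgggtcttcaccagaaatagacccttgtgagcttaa
Cpt1a: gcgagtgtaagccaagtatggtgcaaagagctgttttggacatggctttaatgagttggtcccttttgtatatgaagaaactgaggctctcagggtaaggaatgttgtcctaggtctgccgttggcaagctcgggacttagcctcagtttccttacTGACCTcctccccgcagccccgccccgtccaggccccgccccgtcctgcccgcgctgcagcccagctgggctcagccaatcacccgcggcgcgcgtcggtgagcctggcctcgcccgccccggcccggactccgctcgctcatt

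Most of the genes shared a pattern across pools. In db/db replicate 1, 6 of the 7 genes had the lowest of their 5 signals by the brightest probe set, while Cpt1a had its highest. Of the 13 probe sets, several of them of the same gene, 11 were lowest there, beside 22.1% of all probe sets tested. Relative to the db/+ mean, the median of the 7 genes was −1.18 (log2) in db/db replicate 1, −0.28 in replicate 2 and −0.33 in replicate 3. Leaving out a pool cannot undo a separation of all pools. That Pparg, Angptl4 and Pdk4 lay below both db/+ pools and Cpt1a above them without db/db replicate 1 is therefore no further result. Without that pool, 17.5% of all probe sets lay below and 18.4% above.

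Summed adipocyte and endothelial markers were also lowest in that pool, while those of smooth muscle and fibroblasts were highest there. The summed signal of the 12 white adipocyte markers was 13730, 20413 and 18503 in db/db, against 18659 and 19343 in db/+. For the 11 brown adipocyte markers it was 6038, 11852 and 10506 in db/db, against 7599 and 8602 in db/+. Both lists were thus lowest in db/db replicate 1 and overlapped between genotypes. Of 12 tested in the white list, 1 passed, beside 0.081% of all probe sets, and 8 had a log2 change below 0. In 5 every db/db pool lay below every db/+ pool and in 2 above, beside 11.9% and 13.1%. At an unadjusted p under 0.05, 2 were lower and 1 higher, beside 4.15% and 3.98%. The fat hormone Lep passed, with 23.5 ± 11.5 in db/db (SD, n = 3), against 282.8 ± 26.7 in db/+ (SD, n = 2). Lep was under the filter's 39.5 in all 3 db/db pools, so it was tested only through its db/+ pools and the size of its change is uncertain. Its limma adjusted p of 0.0073 was above 0.05 with a pseudocount of 1 (0.0607), with no filter (0.106) and without db/+ replicate 2 (0.100) or 3 (0.125). For Retn, which encodes resistin, the log2 change was 0.49 (SE 0.20, adjusted p = 0.60), and 0.31 without db/db replicate 2. The bright markers Car3 and Thrsp had −0.09 and 0.33, and Thrsp 0.15 without db/db replicate 3. In the brown list 0 of 10 passed, with 2 higher at an unadjusted p under 0.05, where 3.98% of all probe sets tested were. These were Acot11 (1.42, adjusted p = 0.16) and Elovl3 (1.17, adjusted p = 0.24). Acot11 had 62.7, 85.9 and 101.5 in db/db, against 34.9 and 10.2 in db/+. Both db/+ signals were under the filter's 39.5, so Acot11 was tested only through its db/db pools and the size of its change is uncertain. Acot11 was 0.95 without db/+ replicate 3. The bright brown markers Ucp1 and Cidea had 0.29 and 0.07, and Ucp1 had 0.58 with db/db replicate 1 left out and 0.07 with db/db replicate 2 left out. No marker in any list was at 0 on every array.

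The summed signals of endothelial and of macrophage markers did not overlap between genotypes. The 15 endothelial markers summed to between 2978 and 3533 in db/db and to 4493 and 4066 in db/+, and 13 of 15 had a log2 change below 0. Of the 15, 0 passed in limma and 7 had an unadjusted p under 0.05, all lower, where 4.15% of all probe sets tested were. The junction gene Pecam1 had −0.84 (SE 0.19, adjusted p = 0.23), Vwf −0.57 (adjusted p = 0.45), Ramp2 −0.35 and Eng −0.12. The groups overlapped in Eng and also in Cdh5 (−0.06), Kdr (0.04), Cldn5 (−0.09), Nos3 (−0.21) and Robo4 (0.13), so the list was not lower throughout. The 16 macrophage markers summed to between 2765 and 3275 in db/db and to 4657 and 5739 in db/+. Of 13 tested, 12 had a log2 change below 0 and 0 passed, with 11 at an unadjusted p under 0.05, all lower, beside the same 4.15%. Fcer1g, Lgals3, Lyz2 and Csf1r had −1.63, −1.15, −1.09 and −0.51 (adjusted p from 0.0517 to 0.47), and Csf1r had −0.31 without db/+ replicate 3. Fcer1g had 31.7, 65.4 and 28 in db/db, with replicates 1 and 3 under the filter's 39.5, so the size of its change is uncertain. Both cell types are known to express Cd36, Fabp4 and Pparg, and their part in the values of these genes was not tested. Smooth muscle markers summed to 39507, 35752 and 31427 in db/db and to 29588 and 32930 in db/+.

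**Figure D3:**
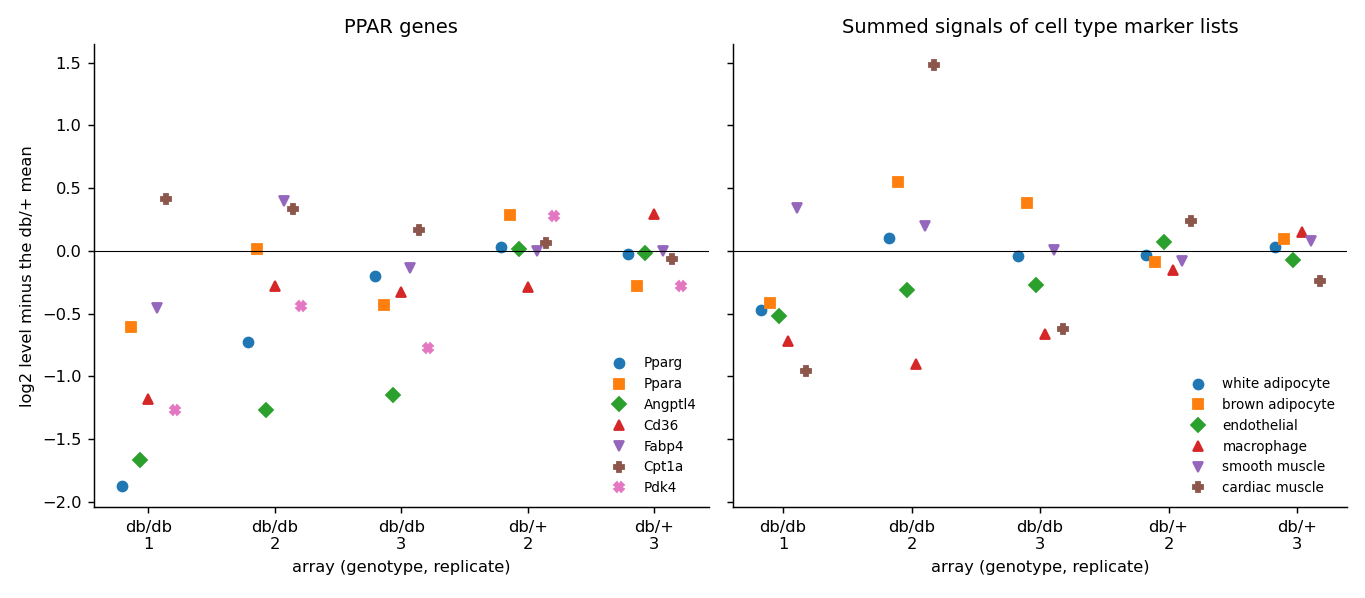
Left, log2(signal + 16) of the 7 genes above the filter, by their brightest probe set, minus the mean of the db/+ arrays; right, log2 of the summed signals of 6 marker lists, minus their db/+ mean. Each symbol is 1 gene or list on 1 array. Pparg reaches −1.88 in db/db replicate 1, where the white adipocyte sum is at −0.47 and the endothelial sum at −0.52; cardiac muscle markers peak at 1.48 in db/db replicate 2.

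Cardiac muscle, which expresses Pdk4 and Ppara, was represented unevenly in the pools. The summed signal of 12 cardiac markers was 822, 4460 and 1039 in db/db, against 1884 and 1358 in db/+, highest in db/db replicate 2. That pool had the highest Pdk4 and Ppara signals of the db/db pools. Without it the log2 changes of Pdk4 and Ppara were −1.02 and −0.52. Of the db/+ pools, replicate 2 had the higher cardiac and skeletal muscle sums. It also had the highest Pdk4 and Ppara signals of the 5 arrays (1751.6 and 191.3). With db/+ replicate 2 left out the changes were −0.55 and −0.06. The part of cardiac or skeletal muscle in these values was not tested. Skeletal muscle markers summed to between 676 and 1030 in db/db and to 1403 and 643 in db/+, and fibroblast markers to between 22262 and 26695 in db/db and to 20539 and 23682 in db/+. Hepatocyte markers summed to between 2240 and 2803 in db/db and to 3469 and 4527 in db/+. Of 11 tested in that list, 2 passed, where 0.081% of all probe sets tested did. These were Alb and Bhmt, both lower in db/db (log2 changes −2.24 and −1.93, limma adjusted p = 0.0090 and 0.024). With a pseudocount of 1, no filter or either db/+ pool left out, 0 of the list passed. At an unadjusted p under 0.05, 8 were lower and 2 higher, where 4.15% and 3.98% of all probe sets tested were. The 2 higher, Cyp2e1 and Apoa1, lay above both db/+ pools in every db/db pool (0.86 and 0.81, adjusted p = 0.33 and 0.39). Hp, the brightest of the list, was lower in every db/db pool than in either db/+ pool (−0.72, adjusted p = 0.42). Apoa1 was named outside the naming rule, after its values were seen. The part of these markers in the values of the PPAR genes was not tested.

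The receptors' partners and coregulators were read from further lists. Rxra, a partner of all PPARs, had signals of 273.1, 271.6 and 237.3 in db/db, against 177.4 and 179.6 in db/+. These groups did not overlap, the log2 change was 0.51 (SE 0.16, adjusted p = 0.41), and it did not pass. A second probe set of Rxra had a log2 change of −0.04, so the probe sets disagree. Rxrb had −0.09 (0.01 without db/+ replicate 2), and Rxrg was under the filter. Of 11 coregulators tested, 0 passed in limma, and 0 had an unadjusted p under 0.05. Their median log2 change was −0.20, with 9 below 0, and in 4 of 11 every db/db pool lay below every db/+ pool, as in 11.9% of all probe sets. The median was −0.07 without db/db replicate 1 and −0.11 without db/+ replicate 2. These 4 were the coactivators Ncoa1 (−0.33), Ncoa3 (−0.33) and Crebbp (−0.35) and the corepressor Nrip1 (−0.23). Ncoa3 had −0.17 without db/db replicate 1, and Crebbp −0.20 without db/+ replicate 2.

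Among other target genes, both directions occurred. In fatty acid oxidation, 0 of 16 tested genes passed in limma. At an unadjusted p under 0.05, 0 were lower and 2 higher in db/db, where 4.15% and 3.98% of all probe sets tested were. The median log2 change was −0.14, with 10 of 16 below 0. Ucp3, a mitochondrial carrier, had 108.4, 117.5 and 109.9 in db/db, against 75.7 and 67.6 in db/+ (0.55, SE 0.15, adjusted p = 0.34). The peroxisomal thiolase Acaa1a had 0.37 (second probe set −0.14). Decr1 and Acaa2, enzymes of mitochondrial oxidation, had −0.35 and −0.40. A second probe set of Decr1 had 0.16, and the others of Acaa2 had −0.41 and −0.69. Without db/db replicate 1, Decr1 and Acaa2 had −0.17 and −0.16, and the median of the list was 0.10. That median was −0.07 without db/+ replicate 2 and −0.26 without db/db replicate 2.

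In uptake and binding of fatty acids, 0 of 10 tested genes passed. At an unadjusted p under 0.05, 3 were lower and 2 higher, where 4.15% and 3.98% of all probe sets tested were. The median log2 change was 0.10, with 6 of 10 above 0. With db/db replicate 2 left out the median was −0.11, and with db/db replicate 1 left out it was 0.26. The heart-type binding protein Fabp3 had 258.3, 726.7 and 544.4 in db/db, against 878 and 1220.6 in db/+ (−1.12, SE 0.37, adjusted p = 0.45). The groups did not overlap, and db/db replicate 1 was again lowest; without it the change was −0.70. Fabp1, the liver-type protein, had −0.45 (SE 0.16), with signals of 42, 33.2 and 32.4 in db/db, near or under the filter's 39.5. Acsl5, which activates fatty acids, and the lipoprotein receptor Vldlr were higher in every db/db pool than in either db/+ pool, with 0.63 (SE 0.17, adjusted p = 0.30) and 0.54 (SE 0.21, adjusted p = 0.57).

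Genes of the lipid droplet and of adipocytes, many of them PPAR gamma targets, had a median log2 change of −0.35 over 15 tested, with 10 below 0. Of these 15, 0 passed in limma, and 2 had an unadjusted p under 0.05, both lower, where 4.15% of all probe sets tested were. In 8 of the 15 every db/db pool lay below every db/+ pool, and in 1 every one lay above, where 11.9% and 13.1% of all probe sets did. The lipase inhibitor G0s2 had 221.2, 346.3 and 273.2 in db/db, against 430.1 and 420.6 in db/+ (−0.60, SE 0.20, adjusted p = 0.45). Cebpa, which acts alongside PPAR gamma in fat cells, had −0.46, the hormone-sensitive lipase gene Lipe −0.57 and the droplet coat gene Plin5 −0.55. Without db/db replicate 1, Lipe and Plin5 had −0.31 and −0.26, and the median was −0.24. It was −0.22 without db/+ replicate 2, and −0.14 with the probe sets of each gene averaged. Of the 15, 6 are also white adipocyte markers.

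**Figure D4:**
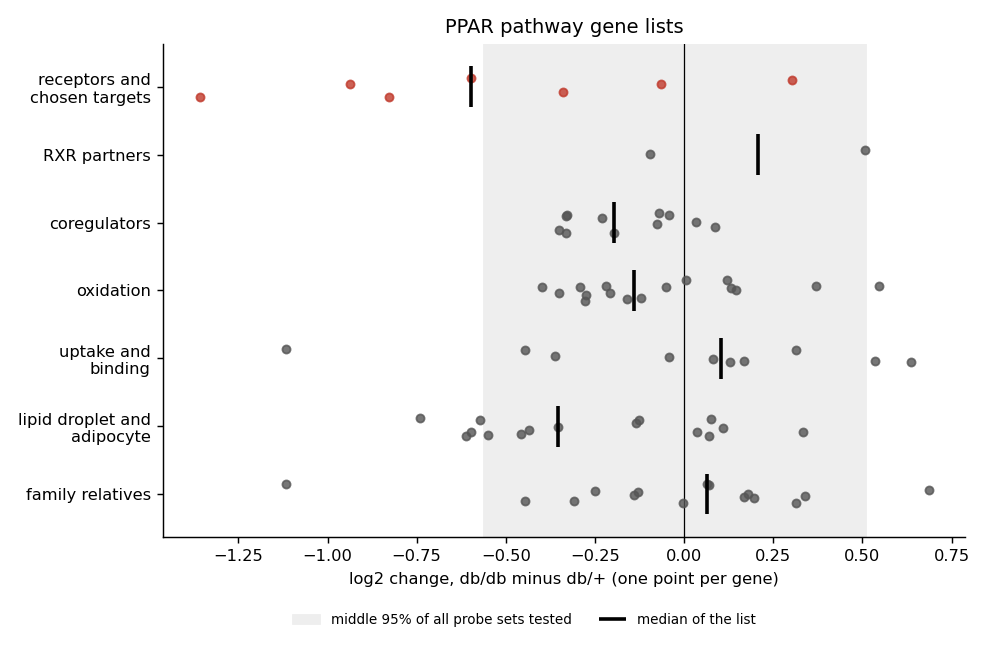
Log2 change (db/db minus db/+) of each tested gene in the 8-gene set and in 6 lists of the PPAR pathway, 1 point per gene, with the list's median as a black bar and the middle 95% of all probe sets tested shaded. Medians are −0.60 for the receptors and chosen targets, −0.35 for lipid droplet and adipocyte genes and 0.10 for uptake and binding.

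Of the relatives of the targets and receptors, 0 of 15 tested passed in limma, with 7 log2 changes below 0 and 8 above. At an unadjusted p under 0.05, 2 were lower and 1 higher, where 4.15% and 3.98% of all probe sets tested were. The median of the list was 0.06 (−0.03 without db/db replicate 1 and −0.07 without db/+ replicate 2). Besides Fabp3 and Fabp1, Angptl7 had 0.69 (SE 0.24, adjusted p = 0.48) and the thyroid hormone receptor gene Thrb 0.34 (SE 0.16, adjusted p = 0.66). Without db/+ replicate 3, Angptl7 had 0.32, and without db/+ replicate 2, Angptl7 had 1.05 and Thrb 0.20.

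Profiles most like those of Pparg and Angptl4 were sought over the 5 arrays, by the root mean square difference of log2(signal + 16) after centring each profile. A similar change and a similar order of arrays follow from this choice and are no separate result. For Pparg the nearest were probe sets of Slc19a1 (0.078), Bola2 (0.150), Aqp7 (0.156), Acsm3 (0.175) and Coq8a (0.195). Each was lowest in db/db replicate 1, and their log2 changes were −1.09, −0.63, −0.74, −1.04 and −0.89. Without that pool they were −0.63, −0.15, −0.25, −0.49 and −0.57. Aqp7, the glycerol channel of fat cells, had 9, 49 and 59.1 in db/db, against 75 and 59.4 in db/+. The brightest probe set of Slc19a1 had −0.17, and those of Bola2 ranged from −0.73 to 0.34. For Angptl4 the nearest were Ivns1abp (0.055), Lyz1 (0.090), Plk2 (0.091), Cyp4b1 (0.106) and Lyve1 (0.114). Their log2 changes were −1.38, −1.33, −1.50, −1.36 and −1.36, and Plk2 and this probe set of Lyve1 passed (adjusted p = 0.031 and 0.047). Neither passed with a pseudocount of 1, with no filter, or without db/db replicate 2 or either db/+ replicate, and Lyve1 also not with quantile normalization, the replicate block, its probe sets averaged or db/db replicate 3 left out. The other 2 probe sets of Lyz1 had changes of −1.03 and 0.05, and that of Lyve1 had −0.87.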

How the data were processed

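RNA of mouse aorta pools was labelled with biotin from 10 µg and hybridised to 1-colour Affymetrix arrays, per the labels' protocols. The deposited table holds 1 linear intensity for each probe set and array. The submitters' processing notes name MAS5 and no version. The 2% trimmed mean was 150.05 on every array, so no further normalization was applied. Precision is limited by the number of arrays.

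Of 22690 probe sets, 64 controls were left out. The platform annotation gave 1 symbol for 20380, several for 691 and none for 1555. A gene was represented by its brightest probe set. Values were taken as log2(signal + 16), which understates changes at low signals, and 13575 probe sets whose mean log2 value was above the 40th percentile were tested with limma 3.58.1 under R 4.3.3, two-sided and without covariates, by lmFit and eBayes (3 residual and 5.63 prior degrees of freedom). Pools are separate samples per the series' design text. In simulated data of 13575 probe sets the test found 98.7% of 4-fold and 56.7% of 2-fold changes, and 5.44% of its calls were false. These changes were set on signal + 16, so they are larger changes of a weak signal. The simulated noise was independent between probe sets, with no pool that shifts many genes together. The shares therefore need not hold for the real arrays.

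The genes and lists were chosen with earlier results of these data known. Named genes were all 8 members, up to 4 of each pathway list with the smallest p, and 5 profiles nearest to Pparg and Angptl4. Up to 2 of the brightest and 2 of the smallest p were named in the adipocyte, endothelial, macrophage and hepatocyte lists. Apoa1, Cdh5, Kdr, Cldn5, Nos3 and Robo4 were added after their values were seen. Probe sets without a symbol stayed in the fit and were not named. The series' design text speaks of 3 pools per genotype, and the db/+ pool that has no array among these 5 was not analysed here. Alternatives were pseudocounts of 1 and 64, no filter and the 60th percentile, array weights, eBayes with trend and robust, centring on medians, quantile normalization, the replicate block, each array left out, and averaging the probe sets of a gene.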

Additional observations from a re-analysis of the deposited data

How the results depend on the processing

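The number of probe sets past the threshold was 11, all lower in db/db. It was 1 with a pseudocount of 1 and 1 with no filter, 35 with a pseudocount of 64, 22 with a filter at the 60th percentile, 48 with array weights, 19 after centring on medians and 39 with eBayes using trend and robust, and from 0 to 28 with 1 array left out (28 without db/db replicate 1, 1 without db/+ replicate 3, and 0 without db/+ replicate 2, where limma gave 761 at an unadjusted p under 0.05). Of the PPAR genes 0 passed, and 1, Angptl4, passed with a pseudocount of 64, a filter at the 60th percentile, array weights, centring on medians, eBayes with trend and robust and the averaging of probe sets, and from 0 to 1 with 1 array left out (1 without db/db replicate 1). The median of the members lay between −0.75 and −0.31 over 15 settings. Settings were compared for 53 of the named genes, with 782 values. Of these values, 722 kept their direction and their side of the threshold, and 33 passed newly. Another 18 no longer passed (Lep, Plk2 and Lyve1) and 9 changed sign. The cause was not tested. Changes of sign were those of Fabp4 (0.13) and Car3 (0.02) without db/db replicate 1 and with the replicate block, Cpt1a with its probe sets averaged (−0.01), Rxrb (0.01) and Eng (0.08) without db/+ replicate 2, and Cidea without db/db replicate 2 (−0.13) or 3 (−0.03). With 1 array left out, Fabp4 ranged from −0.30 to 0.13, Car3 from −0.26 to 0.02, Rxrb from −0.20 to 0.01, Eng from −0.31 to 0.08 and Cidea from −0.13 to 0.38.

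Replicate numbers 2 and 3 occur in both genotypes, and the labels do not say that they mark a shared batch. Same-numbered pools deviated from their group means with correlations of 0.11 and 0 across probe sets. With the replicate block, to which db/db replicate 1 cannot contribute, 20 probe sets and 0 PPAR genes passed, and Pparg and Angptl4 had log2 changes of −0.47 and −1.21. Fits without 1 db/+ pool assume that the remaining one varies like the db/db pools. Low signals limit Ppard and the weaker probe sets of Angptl4 and Cpt1a.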
